A study of Mus musculus with 20 samples.

Results

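The genes described here encode the proteins of the cytosolic ribosome. They were chosen by symbol: a gene is a member if a probe set carries its symbol and no other, and the symbol is a ribosomal protein name of the large (Rpl, Rplp) or small (Rps, Rpsa) subunit. This gave 59 of the 19937 genes that have a probe set of their own, represented by 191 probe sets, and each gene was followed through the probe set with the highest mean signal over all 20 arrays. Of the 79 canonical cytosolic ribosomal proteins of mouse, 53 are members, 20 of the small and 33 of the large subunit. The other 6 members are paralogs: Rps27l, Rpl3l, Rpl10l, Rpl39l, Rpl32l and Rps4l. The remaining 26 canonical genes are not members, and 16 of them, among them Rpl3, Rpl11, Rpl13a, Rpl39, Rps26 and Rps27, are read only by probe sets that carry further symbols, often of predicted genes.

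The samples were left and right brain hemispheres of adult C57/Bl6 mice, collected frozen, with total RNA hybridised to 20 biotin-labelled Affymetrix arrays. Every animal was exposed to lipopolysaccharide (LPS) and then to hypoxia-ischemia (HI), which injured the left hemisphere, so no group is free of either and the uninjured right hemisphere is the reference. The 4 groups of 5 arrays were injured left and uninjured right hemispheres without peptide, from 5 animals, and injured left and uninjured right hemispheres of 5 other animals with IDR1018, a synthetic immunomodulatory peptide related to host defence peptides. Dose and time of collection are not stated in the sources used here. The first 10 arrays by number held the left hemispheres and the last 10 the right ones, which means that hemisphere and order of the arrays cannot be told apart.

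Ribosomal proteins are built with ribosomal RNA in the nucleolus into a small subunit, which reads the messenger RNA, and a large subunit, which forms the peptide bond. Their messenger RNAs are among the most abundant of any cell and begin with a 5′ terminal oligopyrimidine (TOP) tract, through which mTORC1 and the binding protein LARP1 control their translation and stability. Several ribosomal proteins, above all Rpl5 and Rpl11, bind the ubiquitin ligase Mdm2 when ribosome assembly is disturbed and so stabilise p53. Rps27l, a paralog of Rps27, is a known p53 target.

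The start regions of 8 members are shown because they include the 5 genes that rose in the injured hemisphere both without and with the peptide (Rpl12, Rps27l, Rpl27a, Rps28 and Rps13), 2 that led the rise without it (Rpl5 and Rps9), and the member with the highest signal (Rps6). Each window runs from 40 bases before to 20 bases after the RefSeq start, in the direction of transcription, on build GRCm38.p6. Capitals mark the longest pyrimidine tract, a C followed by at least 4 further pyrimidines, that starts within 20 bases of the annotated start.
Rpl12: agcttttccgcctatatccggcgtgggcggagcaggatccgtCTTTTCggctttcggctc
Rps27l: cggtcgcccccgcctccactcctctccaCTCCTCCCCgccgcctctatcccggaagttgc
Rpl27a: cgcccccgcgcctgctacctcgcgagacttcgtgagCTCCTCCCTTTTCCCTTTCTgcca
Rps28: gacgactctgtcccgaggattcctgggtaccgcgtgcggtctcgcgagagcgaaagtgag
Rps13: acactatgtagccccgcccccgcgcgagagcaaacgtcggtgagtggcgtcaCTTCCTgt
Rpl5: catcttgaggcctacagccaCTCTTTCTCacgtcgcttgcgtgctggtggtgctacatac
Rps9: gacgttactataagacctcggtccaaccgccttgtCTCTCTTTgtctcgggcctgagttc
Rps6: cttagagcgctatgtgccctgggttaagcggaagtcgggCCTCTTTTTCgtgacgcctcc
The windows lie at chr2:32961672-32961731 (plus strand), chr9:66946046-66946105 (plus; the first of 2 entries), chr7:109519155-109519214 (plus), chr17:33824543-33824602 (minus), chr7:116334171-116334230 (minus), chr5:107900488-107900547 (plus), chr7:3704001-3704060 (plus) and chr4:86857348-86857407 (minus), in that order. Rpl27a, with a tract of 20 pyrimidines, and Rps6, with 10, have the longest tracts of these windows, while the Rps28 window holds no such tract.

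RefSeq promoter entries of 300 bases were matched by symbol for 47 of the 59 members. A tract of 5 or more pyrimidines opening with C near the start was found in 37 of the 47 (78.7%), against 51.4% of 27025 genes with an entry. Tracts of 7 or more were found in 24 members (51.1%), against 22.6% of those genes. The letters CTTCCG, a form of the core bound by ETS factors, stood on either strand of 32 members' promoters (68.1%) against 18.8% of all genes, and TATAAA in 6 (12.8%) against 15.7%. Among the members that rose on the injured side without peptide, 14 of the 18 with an entry held the shorter tract, and among the other members 23 of 29. These matches describe the letters in the window and show no binding or use of a site.

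Most member probe sets were bright. Mean log2 intensity over 20 arrays ran from 5.07 for Rpl39l to 13.8 for Rps6, with a median of 11.74, and 40 members lay in the top 10% of all probe sets. The 5 highest were Rps6, Rpl9, Rps2, Rpl36 and Rplp0, and the 5 lowest were Rplp2 (7.81), Rpl7a (7.68), Rpl10l (7.22), Rpl3l (6.29) and Rpl39l. Rpl3l, the muscle form of Rpl3, and Rpl39l, known from testis, read under the control probe set median on all 20 arrays, while 56 members exceeded it on every array. The mean over all arrays chose the probe set of each gene, and signal depends on the probes as well as the transcript, so these values do not order the genes by abundance. Rplp2 and Rpl7a show this: both are core proteins, but their own probe sets are dim, and probe sets that name Rpl7a beside a predicted gene reached 12.5. The choice of probe set was close for 6 of the 38 members with several: Rps15 was followed at 12.80 with a second probe set at 12.79, and Rpl5 at 11.73 with a second at 11.72.

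The arrays resembled one another closely. Array medians lay between 8.20 and 8.23 and correlations between arrays across probe sets between 0.994 and 0.998. Normalisation brings array medians together, and fixed level differences between probe sets raise the correlations, so neither shows how small a difference can be resolved. The median SD between replicates over members was 0.062 to 0.068 in the 4 groups, against 0.074 to 0.082 over all probe sets. Of the markers of brain cells, 0 of 12 for neurons, 0 of 10 for astrocytes and 0 of 10 for oligodendrocytes lay below the control median on every array. The labels give 1 specimen number to each left and right pair, taken here as 1 animal.

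Without peptide, ribosomal protein genes were higher in the injured than in the uninjured hemisphere, by small amounts and nearly all in the same direction. By limma with Benjamini-Hochberg adjustment over 28187 probe sets, 23 of the 59 members rose (adjusted p below 0.05) and 0 fell; of all probe sets, 9.21% rose and 8.84% fell. The fold change was positive for 55 members, with a median of 0.11 log2 units (1.08-fold), whereas 8824 of 19937 genes were positive and their median was -0.01. At an unadjusted p below 0.05, 33 members were higher and 0 lower. In all 5 animals the left array was above the right for 31 members, against 14.5% of all probe sets. All 5 left arrays lay above all 5 right arrays for 20 members, against 7.47% of all probe sets. In bulk tissue a change in the share of cells of a type and a change of RNA per cell cannot be told apart.

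**Figure D1:**
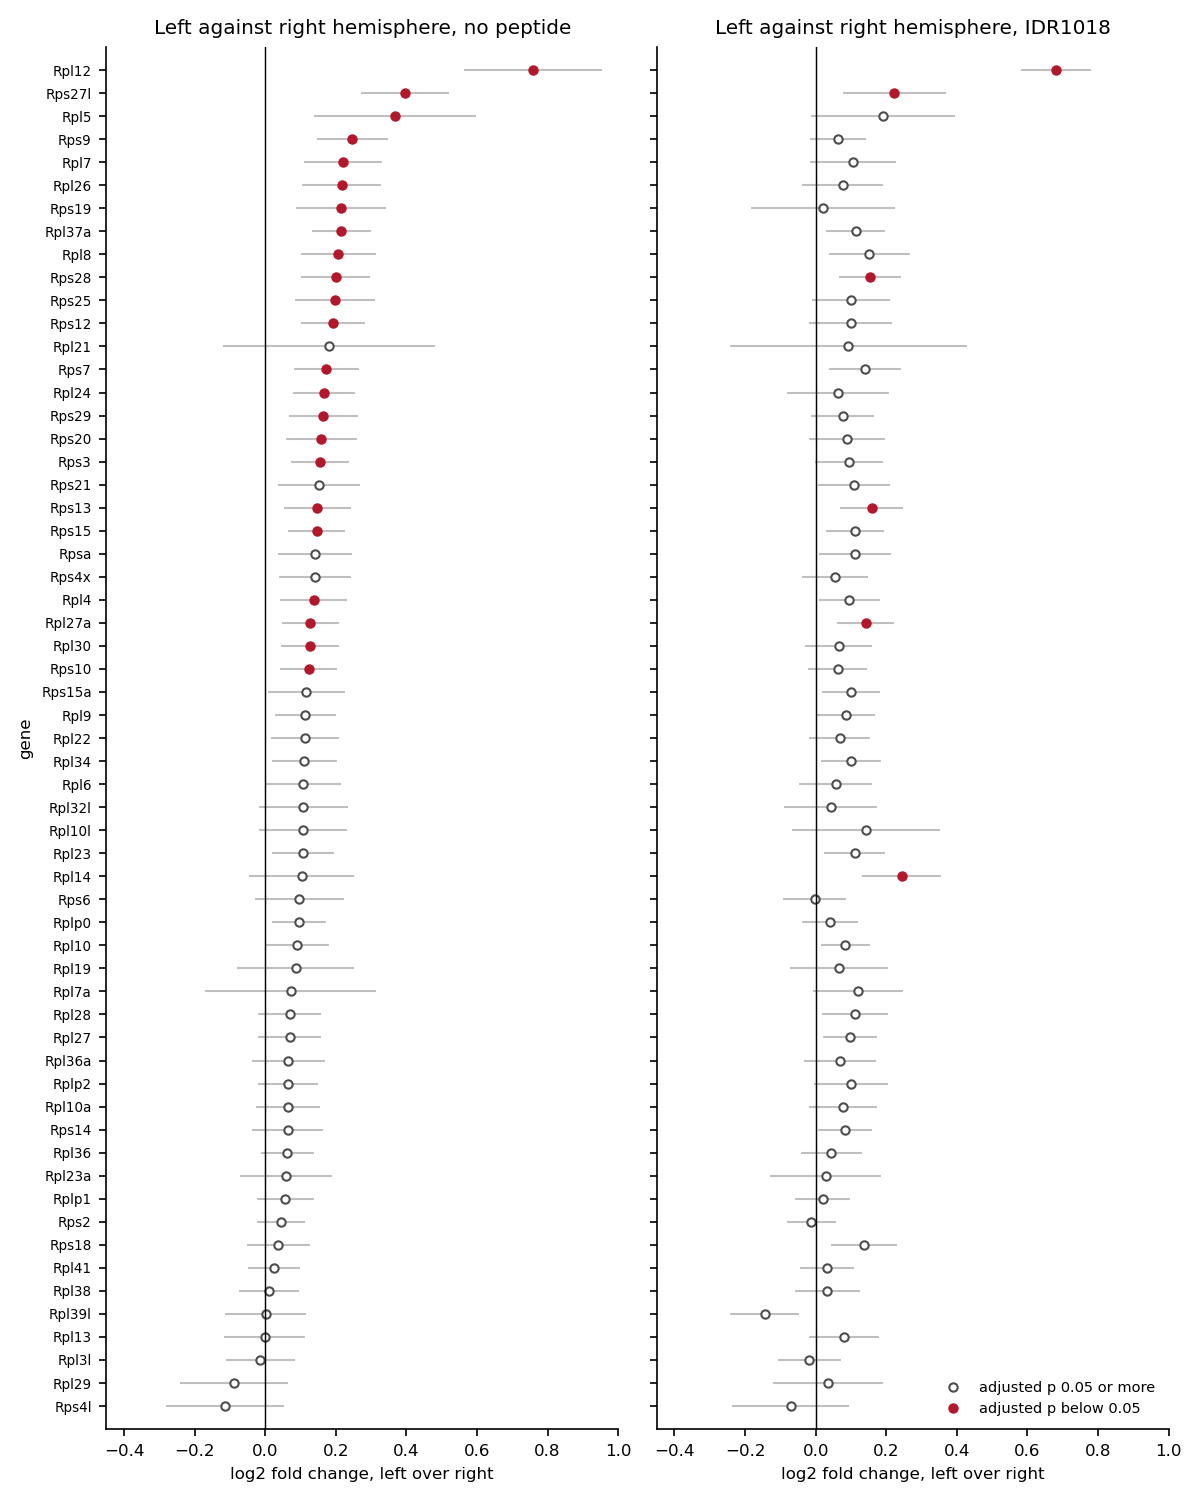
Log2 fold change of left over right hemisphere for each of the 59 members without peptide (left panel) and with IDR1018 (right panel); points are limma estimates, bars are 95% confidence intervals, and red points have adjusted p below 0.05. The points lie mostly to the right of 0 in both panels, with 23 red points without peptide and 6 with IDR1018.

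The small subunit contributed more calls than the large one. Of its 20 canonical members 12 rose and all 20 fold changes were positive, with a median of 0.15. Rps9 led, followed by Rps19, Rps28 (0.20 ± 0.04, SE), Rps25, Rps12, Rps7, Rps29, Rps20, Rps3, Rps13, Rps15 and Rps10 (0.12 ± 0.04). Of the 33 large subunit members, 10 rose and 31 were positive, with a median of 0.10: Rpl12, Rpl5, Rpl7, Rpl26, Rpl37a, Rpl8, Rpl24, Rpl4, Rpl27a and Rpl30. The difference between the subunits was not tested. Among the 6 paralogs only Rps27l rose. Rps4l (-0.11 ± 0.08, SE) did not pass although its left array was below the right one in 5 of 5 animals, and Rpl3l (-0.01 ± 0.04) and Rpl39l (0.00 ± 0.05) did not pass either.

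The calls were not spread evenly over the signal range. Of the 11 members with a mean of 13 or more, 0 passed the test, although all 11 were positive and their median was 0.09. These include Rps6, which is phosphorylated downstream of mTORC1, Rplp0 and Rplp1 of the stalk that recruits elongation factors, Rpl10, which joins the large subunit late in its assembly, and the very small protein Rpl41. In the band from 11 to 13, 17 of 29 members rose, with a median of 0.15, while 234 of 2231 genes in that band rose and their median was -0.02. Below 11, 6 of 19 members rose, as did 1847 of 17594 genes. Of all 112 genes at 13 or more, 4 rose, so calls were rare at that signal whatever the gene.

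Rpl12, a large subunit protein of the stalk base, showed the largest difference. Its right-hemisphere arrays without peptide read 8.54, 8.46, 8.61, 8.48 and 8.47 (8.51 ± 0.06, SD, n = 5), and its left-hemisphere arrays 9.12, 9.13, 9.65, 9.28 and 9.19 (9.27 ± 0.22). The groups did not overlap, and animal 3 had the highest left array and also the highest right one. The rise was 0.76 ± 0.09 log2 units (SE), or 1.69-fold, with adjusted p = 0.000304 by limma.

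This Rpl12 value belongs to 1 probe set that is annotated to a cDNA and not to the RefSeq mRNA of the gene. A second such probe set, which also names the small nucleolar RNA Snora65 of an Rpl12 intron, rose by 0.63 ± 0.06 (SE; adjusted p = 0.000114 by limma). The 6 probe sets annotated to the Rpl12 mRNA, which share a predicted gene's symbol and are therefore outside the rule, ran from 0.06 to 0.18, and 2 of them passed the test. What the first 2 probe sets detect was not tested. Without Rpl12 the count of members that rose was 22 of 58 and the median 0.11.

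**Figure D2:**
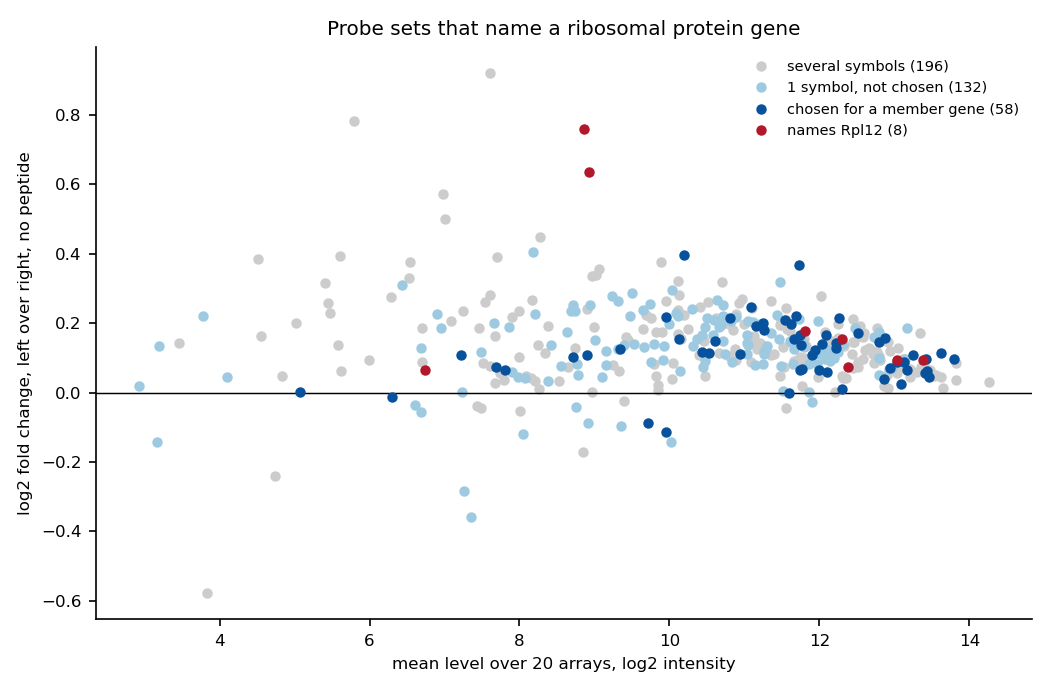
Log2 fold change of left over right hemisphere without peptide against mean log2 intensity over 20 arrays, for the 394 probe sets that name a ribosomal protein gene alone or with other symbols. Most points lie above 0; 2 of the 8 red Rpl12 points stand at 0.63 and 0.76, and the other 6 at 0.06 to 0.18.

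Rps27l, the p53 target, was second. Its right arrays without peptide read 10.11, 9.93, 10.10, 10.11 and 9.84 (10.02 ± 0.12, SD, n = 5) and its left arrays 10.38, 10.49, 10.43, 10.40 and 10.36 (10.41 ± 0.05). No left array was as low as any right one. The rise was 0.40 ± 0.06 (SE), or 1.32-fold, with adjusted p = 0.000928 by limma.

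Rpl5, which carries 5S ribosomal RNA into the ribosome together with Rpl11, varied more between animals. The right arrays read 11.56, 11.61, 11.69, 11.46 and 11.27, and the left arrays 11.88, 12.23, 11.93, 11.76 and 11.63. The 2 groups overlapped, though each animal's left array was above its right one. The difference was 0.37 ± 0.11 (SE; adjusted p = 0.0312 by limma), and it missed the threshold without animal 1, 2, 3 or 4 (0.38, 0.30, 0.40 and 0.38). The other 2 bright Rpl5 probe sets rose by 0.21 ± 0.05 and 0.32 ± 0.07. Rpl11 was read only beside a further symbol: its 6 probe sets ranged from 0.05 to 0.24, and 2 of them rose, by 0.24 and 0.18.

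Rps9, which lies near the entry of the messenger RNA channel, differed less. Its right arrays read 11.02, 10.97, 10.93, 10.93 and 10.90 and its left arrays 11.08, 11.24, 11.31, 11.12 and 11.23. The lowest left array was above the highest right one, and the rise was 0.25 ± 0.05 (SE; adjusted p = 0.00393 by limma). Both Rps9 probe sets rose, the second by 0.20 ± 0.04.

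The other named members rose by about 0.22 each. Rpl37a, a zinc-binding protein, went from 12.16 ± 0.06 to 12.37 ± 0.04 (SD, n = 5) with no overlap. Rpl7 rose by 0.22 ± 0.05 (SE), as did 2 of its other 3 probe sets, and Rpl26, which also binds the p53 messenger RNA, by 0.22 ± 0.05. Rps19, the gene most often mutated in Diamond-Blackfan anaemia, rose by 0.22 ± 0.06, but not with the animal as a block (adjusted p = 0.0635 by limma). Without animal 5 the Rps19 value was 0.15 and without animals 2, 3 or 4 it was 0.24, 0.19 and 0.23, and none of these passed. Rpl7 also missed it without animal 2 (0.17) or 5 (0.19), Rpl26 without 3 (0.19) or 5 (0.17), and Rps28 without 5 (0.15). Rpl12, Rps27l, Rps9 and Rpl37a passed in all 13 fits of this comparison.

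Well-known members that did not pass had confidence intervals with upper ends of 0.17 to 0.25. Rps6 was at 0.10 (95% confidence interval -0.03 to 0.22), Rplp0 at 0.10 (0.02 to 0.17), Rpl10 at 0.09 (-0.0016 to 0.18) and Rpl22, whose loss alters lymphocyte development, at 0.11 (0.02 to 0.21). Rpsa, also known as a laminin receptor precursor, was at 0.14 (0.04 to 0.25), and Rps4x, the X-linked form of Rps4, at 0.14 (0.04 to 0.24; no overlap between its groups). Rpsa, Rps4x and Rplp0 passed when all 4 groups were fitted together.

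**Figure D3:**
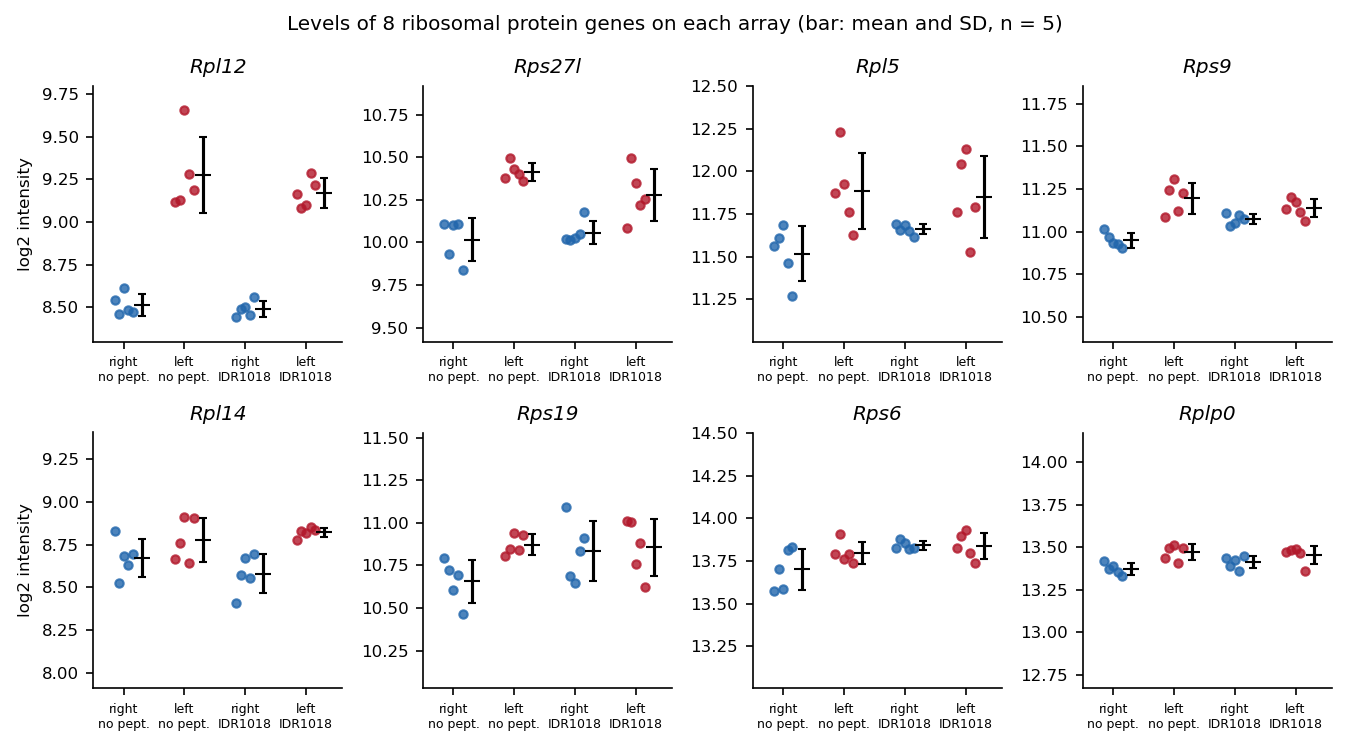
Log2 intensity on each array for 8 members in the 4 groups, blue for right and red for left hemispheres; the bar beside each group is its mean and SD (n = 5), and the panels have different centres but the same span. Rpl12 separates left from right in both treatments, whereas the Rps6 and Rplp0 groups overlap.

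The count of members changed when single animals were left out and when the control level of the arrays was fitted. Without animal 1 it was 22 of 59, with 8.11% of all probe sets higher. Without animals 2, 3, 4 and 5 it was 8, 13, 10 and 5, with 6.41%, 7.5%, 5.31% and 5.15% of all probe sets higher. The median over members was 0.10 to 0.14 in these 5 fits. Within the animals, the median left minus right difference over members was 0.02, 0.17, 0.15, 0.10 and 0.17 in animals 1 to 5 (0.12 ± 0.06, SD, n = 5), with 38, 56, 52, 47 and 53 of 59 members higher on the left. The median of the control probe sets differed between left and right by 0.08, -0.16, -0.20, -0.08 and -0.22 in the same animals. Animal 1, whose left array had the higher control signal, had the smallest member difference. Among the other animals the member and control differences did not follow the same order. With the control median of each array as a covariate, 4 members rose (Rpl12, Rps27l, Rps9 and Rpl37a), a share of 6.78% against 5.45% of all probe sets, while 49 members stayed positive with a median of 0.09. The control median itself differed between the sides, with group means of 6.789 on the left and 6.905 on the right. Hemisphere and control level therefore cannot be fully told apart in this fit. Beyond it, the part of the control signal in the result was not tested.

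**Figure D4:**
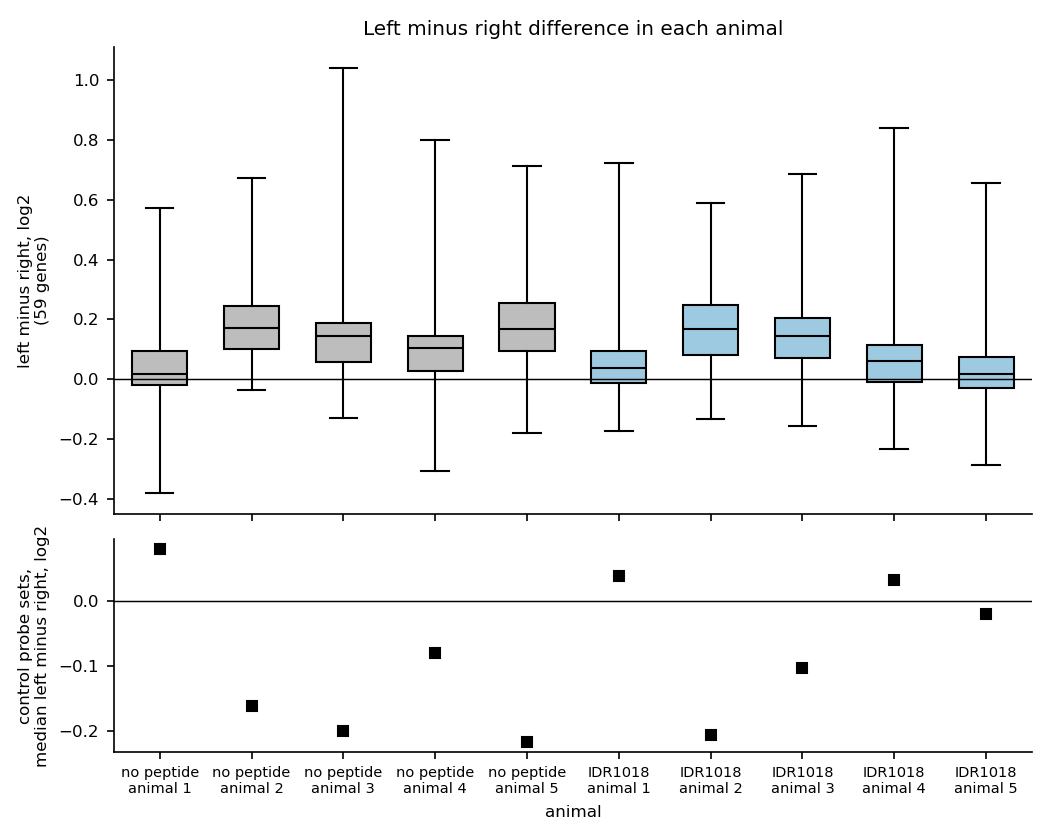
Left minus right difference in each of the 10 animals: boxes in the upper panel show the 59 members (median, quartiles, and whiskers to the lowest and highest gene), and squares in the lower panel show the difference of the control probe set median. Member medians run from 0.02 to 0.17 and are lowest in the animals whose control difference is near or above 0. Any relation between the panels was not tested.

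With IDR1018, the same comparison gave fewer calls but nearly the same direction. By limma 6 of 59 members rose and 0 fell, against 7.77% of all probe sets that rose and 7.07% that fell, so the share that rose was near the background. At an unadjusted p below 0.05, 22 members were higher and 1 lower. The fold change was positive for 54 members, with a median of 0.09, where 8772 of 19937 genes were positive. All left arrays lay above all right arrays for 6 members, against 7.09% of all probe sets. In 5 of 5 animals the left array was higher for 15 members, against 13.2% of all probe sets. The animals' medians over members were 0.04, 0.17, 0.14, 0.06 and 0.02 (0.09 ± 0.07, SD, n = 5), and their control differences were 0.04, -0.21, -0.10, 0.03 and -0.02. The small subunit gave 2 calls of 20 and the large subunit 3 of 33.

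Rpl12 again led. Its right arrays read 8.44, 8.49, 8.50, 8.45 and 8.56 and its left arrays 9.16, 9.08, 9.10, 9.29 and 9.22, which is a rise of 0.68 ± 0.05 (SE; adjusted p = 6.59e-06 by limma) with no overlap. The Rpl12 probe sets annotated to its mRNA lay between -0.02 and 0.10, and 0 of 6 passed; without Rpl12 the count of members was 5 of 58. Rpl14, a large subunit protein, came next. Its right arrays read 8.41, 8.57, 8.67, 8.56 and 8.69 and its left arrays 8.78, 8.83, 8.82, 8.85 and 8.84, all above the right ones. Rpl14 rose by 0.24 ± 0.05 (SE; adjusted p = 0.00792 by limma), while without peptide it stood at 0.10 ± 0.07.

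The other 4 calls with IDR1018 were Rps27l, Rps13, Rps28 and Rpl27a, all of which had also risen without it. The Rps27l left arrays read 10.08, 10.49, 10.35, 10.22 and 10.25 against 10.02, 10.02, 10.03, 10.05 and 10.18 on the right, so the groups overlapped. Rps27l rose by 0.22 ± 0.07 (SE; adjusted p = 0.0440 by limma). Rps13 read 10.64, 10.81, 10.73, 10.62 and 10.66 on the left and 10.54, 10.50, 10.52, 10.54 and 10.57 on the right, a rise of 0.16 ± 0.04. Rps28 read 11.32, 11.44, 11.37, 11.32 and 11.24 on the left and 11.22, 11.15, 11.19, 11.17 and 11.19 on the right, a rise of 0.15 ± 0.04. Rpl27a rose by 0.14 ± 0.04, and in these last 3 genes, all parts of the core ribosome, the groups did not overlap. In all 4 genes the left arrays of animals 2 and 3 were the highest, and in these animals the control median was lower on the left by the most.

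With the animal as a block, 2 members rose, Rpl12 and Rpl14, against 6.63% of all probe sets, and Rpl39l fell, against 5.37%. Rps27l, Rps13, Rps28 and Rpl27a were then at adjusted p = 0.0615, 0.0616, 0.0604 and 0.0606 by limma. The count was also 2 without animal 2 or 3, where 4.84% and 5.72% of all probe sets rose, and with the control median as covariate, where 5.96% did. Without animals 1, 4 and 5 it was 5, 4 and 5, where 5.33%, 5.04% and 5.8% of all probe sets rose. Rps27l missed the threshold without animal 2, 3, 4 or 5 (0.16, 0.20, 0.23 and 0.26). Rps13 missed it without animal 1, 2 or 3 (0.17, 0.12 and 0.15), Rps28 without animal 1, 2, 3 or 4 (0.17, 0.12, 0.15 and 0.16), and Rpl27a without animal 2, 3 or 5 (0.12, 0.13 and 0.15). Rpl39l, under the control level on every array, stood at -0.14 ± 0.05 (SE; adjusted p = 0.0512 by limma). All of Rps9 (0.06 ± 0.04), Rpl5 (0.19 ± 0.09), Rpl7 (0.10 ± 0.06), Rpl26 (0.08 ± 0.05) and Rps19 (0.02 ± 0.09) missed the threshold with IDR1018.

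Whether IDR1018 changed the left-right difference was tested directly, and 0 of 59 members passed by limma, as did 0.0% of all probe sets. At an unadjusted p below 0.05, 0 members were higher and 2 lower, Rps9 and Rpl39l. The fold change of the difference was below 0 for 41 members and above it for 18, with a median of -0.04. The median was -0.02 with the control covariate, without IDR1018 animal 5 or without no-peptide animal 5. The Rps9 estimate was -0.18 ± 0.06 (SE; 95% confidence interval -0.30 to -0.07; adjusted p = 0.9998 by limma), and that of Rpl37a -0.10 (-0.21 to 0.00). On the other side stood Rps18 at 0.10 (-0.02 to 0.22), Rpl14 at 0.14 (-0.04 to 0.32) and Rpl29 at 0.12 (-0.10 to 0.34). For Rps27l the interval was -0.36 to 0.02 and for Rpl12 -0.30 to 0.14. The greater number of calls without peptide is therefore not shown to be a difference between treatments.

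In the injured hemisphere, IDR1018 against no peptide gave 0 of 59 members past the threshold by limma, 0.0% of all probe sets, and 0 members at an unadjusted p below 0.05. The median was -0.01, with 25 members positive. The lowest p among lower members were those of Rps27l (-0.13 ± 0.07, SE), Rps4x (-0.07 ± 0.04) and Rps29 (-0.07 ± 0.04), and among higher members those of Rpl3l (0.09 ± 0.04), Rps18 (0.07 ± 0.04) and Rpl29 (0.14 ± 0.08). The confidence intervals of all members lay between -0.30 and 0.57, the upper end that of Rpl21.

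In the uninjured hemisphere, 0 of 59 members passed by limma, against 0.00355% of all probe sets, which is 1 probe set. Here 47 members were positive with a median of 0.03, and 3 were higher at an unadjusted p below 0.05. Without the right array of no-peptide animal 5, 35 members were positive and the median was 0.0086; without that of animal 1 or 3 it was 0.04, and with the control covariate or without the right array of IDR1018 animal 1, 0.016. Rps9 read 11.11, 11.03, 11.05, 11.10 and 11.07 with IDR1018, all above its 5 right arrays without peptide; it was the 1 member whose groups did not overlap, against 0.312% of all probe sets. This was a difference of 0.12 ± 0.03 (SE; adjusted p = 0.922 by limma). Rps6 read 13.83, 13.88, 13.86, 13.82 and 13.82 with the peptide and 13.58, 13.70, 13.58, 13.81 and 13.83 without it, a difference of 0.14 ± 0.05, and Rpl21 differed by 0.25 ± 0.09. On the lower side Rplp2 was at -0.07 ± 0.04, Rpl14 at -0.09 ± 0.06 and Rpl38 at -0.03 ± 0.04. The comparisons within and between hemispheres share arrays, so the low right-hemisphere Rps9 values without peptide enter 3 of them.

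Probe sets outside the choice were also mostly positive. Of the 132 further probe sets that carry only a member's symbol, 28 (21.2%) rose without peptide and 121 were positive. Of all probe sets, 9.21% rose in this comparison. Of 203 probe sets that name a ribosomal protein beside other symbols, 48 rose, 0 fell and 195 were positive, with a median of 0.13. Rpl3, which reaches toward the peptidyl transferase centre, was read by 6 of them: 5 rose, by 0.15 to 0.32, and the dimmest stood at 0.38 without passing. The 3 probe sets of Rps26, near the exit of the messenger RNA, were at 0.04 to 0.07 and did not pass. Of the 4 of Rpl13a, known from translational silencing of inflammatory messages, 1 that also names Snord32a rose (0.22), and the others were at 0.10, 0.13 and 0.13. The 2 of Rpl39, in the exit tunnel, were at 0.06 and 0.13. These genes were chosen after their values were seen. With IDR1018, 17 of the 203 (8.4%) rose and 1 fell, and 11 of the 132 (8.3%) rose. Both shares that rose were near the 7.77% of all probe sets. The reading of a probe set with several symbols cannot be given to 1 gene.

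Among genes that assemble ribosomes, many rose on the injured side and others did not pass. Of 56 measured biogenesis genes, 29 (51.8%) rose without peptide and 27 (48.2%) with IDR1018, and 0 fell in either by limma. Their medians were 0.15 and 0.14. Of all probe sets, 9.21% and 7.77% rose and 8.84% and 7.07% fell. Gnl3 (nucleostemin, 0.46 ± 0.05 without and 0.45 ± 0.06 with peptide, SE), Nop58 of the box C/D snoRNPs (0.45 ± 0.05 and 0.36 ± 0.05) and Imp4 of the small subunit processome (0.38 ± 0.05 and 0.39 ± 0.04) led. Without animals 1 to 5 the counts were 24, 20, 19, 16 and 15 without peptide, and 18, 16, 21, 15 and 18 with it. In these fits 5.15% to 8.11% of all probe sets rose without peptide, and 4.84% to 5.8% with it. With the control median as covariate, 16 and 22 of the biogenesis genes rose, where 5.45% and 5.96% of all probe sets did. No member fell in that fit either, and 4 and 2 members rose in it.

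Of 77 mitochondrial ribosomal proteins, which belong to a separate ribosome, 14 rose and 4 fell without peptide and 14 rose and 2 fell with it, with medians of 0.06 and 0.05. Mrps6 rose in both (0.34 and 0.41), Mrpl13 rose without peptide (0.25, with 0.14 under IDR1018) and Mrps26 with it (0.26, with 0.01 in its absence). Mrps21 (-0.42 and 0.00) and Mrps17 (-0.18 and -0.08) fell without peptide, and Mrpl14 (-0.11 and -0.19) with it. Mrpl10 fell in both (-0.16 and -0.13), and Mrpl55 fell without peptide (-0.15 and -0.08). Without animals 1 to 5, the members of this family that rose numbered 16, 11, 9, 6 and 10 without peptide and 7, 5, 6, 7 and 9 with it. Those that fell numbered 1, 4, 1, 1 and 3 without peptide and 1, 1, 1, 1 and 2 with it. In these fits 5.15% to 8.11% of all probe sets rose and 4.42% to 7.55% fell without peptide. With it 4.84% to 5.8% rose and 3.4% to 5.09% fell. With all animals, 18.2% of the family rose in each comparison, against 9.21% and 7.77% of all probe sets. The shares that fell, 5.2% and 2.6%, were below the 8.84% and 7.07% of all probe sets. Both directions occurred here, whereas no cytosolic member fell in either comparison. The difference between the families was not tested.

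A list of 20 other genes with TOP messenger RNAs holds translation factors and, beside them, Tpt1, Naca, Btf3, Nap1l1, Npm1 and the non-coding Gas5. Of these, 6 (30%) rose and 0 fell without peptide, and 1 (5%) rose and 0 fell with it. The shares of all probe sets that rose were 9.21% and 7.77%. Leaving out animals 1 to 5 gave 4, 2, 4, 1 and 2 higher without peptide, and 0, 0, 0, 0 and 3 with it. Of all probe sets, 5.15% to 8.11% and 4.84% to 5.8% rose in those fits. The genes of this list that rose without peptide were led by subunits of initiation factor eIF3: Eif3e (0.33 ± 0.05, SE), Eif3a (0.21 ± 0.05) and Eif3l (0.17 ± 0.04). The others that rose were the elongation factor subunit Eef1b2 (0.11 ± 0.04), Naca (0.13 ± 0.04), which binds nascent chains, and Gas5 (0.15 ± 0.04), a host of small nucleolar RNAs and also the 1 call with IDR1018 (0.17 ± 0.05). The elongation factors Eef1a1 (0.01 ± 0.03) and Eef2 (0.01 ± 0.03), with signals above 13, did not pass. Neither did the other measured eIF3 subunits without peptide, Eif3f (0.07), Eif3h (0.07), Eif3k (-0.005) and Eif3m (0.15). With IDR1018 no measured eIF3 subunit passed.

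A list of mTORC1, 4E-BP and LARP genes, which also holds the transcription factors Myc, Mycn, Max and Gabpa, had calls in both directions. Of 24 measured, 7 rose and 3 fell without peptide, and 5 rose and 2 fell with it. Without peptide these were 29.2% and 12.5%, against 9.21% and 8.84% of all probe sets. With it they were 20.8% and 8.3%, against 7.77% and 7.07%. The shares that fell were thus near those of all probe sets. Eif4ebp1, a repressor of cap-dependent initiation, rose by 0.62 ± 0.05 (SE) without and 0.50 ± 0.06 with peptide. Sesn2 rose by 0.45 ± 0.09 and 0.32 ± 0.06, and Ddit4 by 0.35 ± 0.09 without peptide, with 0.04 ± 0.07 in its presence; both encode stress-induced inhibitors of mTORC1. Tsc2 (-0.23 ± 0.03 and -0.16 ± 0.04), also an inhibitor of mTORC1, and the kinase Mtor itself (-0.19 ± 0.04 and -0.20 ± 0.03) fell in both, and Rptor (-0.13 ± 0.03) without peptide. Gabpa, an ETS family factor, rose by 0.34 and 0.25, and Larp1 was at 0.03 ± 0.04 and 0.04 ± 0.03.

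In the ribosomal protein, Mdm2 and p53 list, 6 of 11 genes (54.5%) rose without peptide and 5 (45.5%) with it, and 0 fell. Of all probe sets, 9.21% and 7.77% rose and 8.84% and 7.07% fell. Phlda3 (0.50 ± 0.07 and 0.49 ± 0.04, SE), Gadd45a (0.39 ± 0.07 and 0.35 ± 0.06) and Sesn1 (0.34 ± 0.06 and 0.29 ± 0.06), all known p53 targets like Rps27l, rose in both. So did Plk2 (0.24 and 0.25), while Ccng1 (0.13) and Bbc3 (0.12) rose only without peptide. Btg2 (0.41 and 0.15), Zmat3 (0.13 and 0.115), Trp53inp1 (0.17 and -0.08) and Mdm4 (-0.04 and -0.02) passed in neither. A p53 response was not tested. Mdm2 itself was at 0.13 ± 0.05 without peptide and rose by 0.21 ± 0.06 with it.

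**Figure D5:**
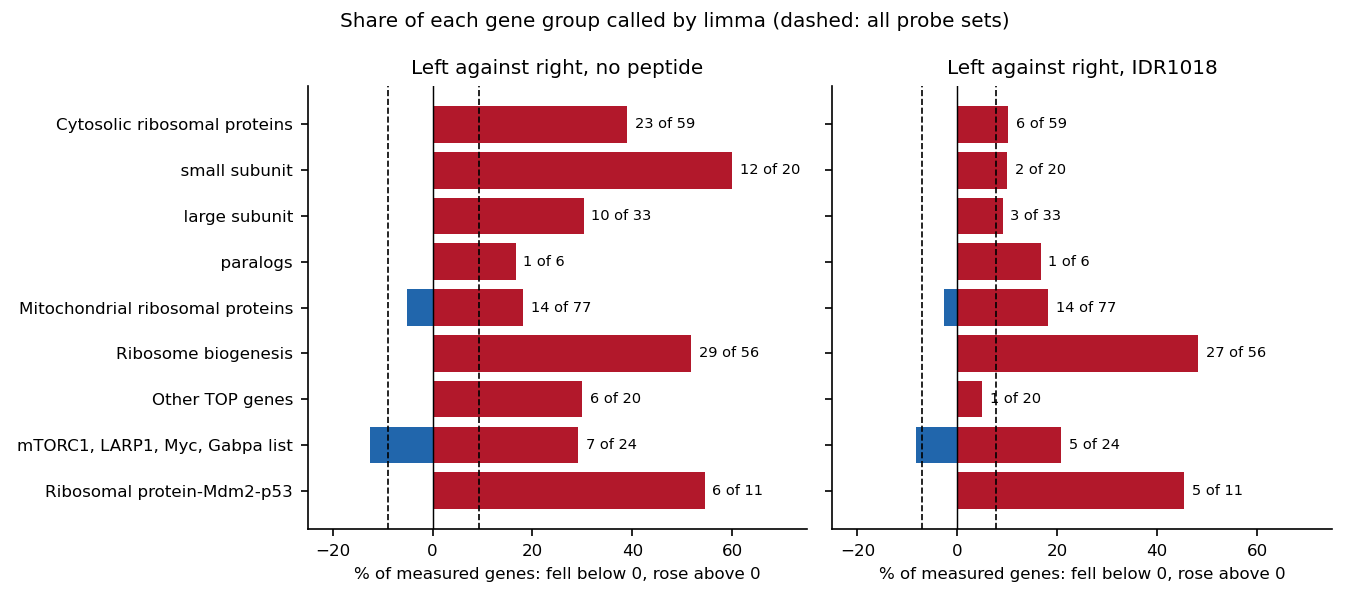
Percent of measured genes called by limma in the left against right comparison, without peptide (left panel) and with IDR1018 (right panel); red bars above 0 rose, blue bars below 0 fell, numbers give the genes that rose, and dashed lines mark the percent of all probe sets that rose (9.21% and 7.77%) and fell (8.84% and 7.07%). The bars of the cytosolic family reach 23 of 59 and 6 of 59, those of ribosome biogenesis 29 of 56 and 27 of 56.

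Some markers of other cell types differed between the sides, and their part in the ribosomal values was not tested. Beside every marker count below stand the shares of all probe sets: 9.21% rose and 8.84% fell without peptide. With IDR1018, 7.77% rose and 7.07% fell. Lists this short with 1 call lie near these shares, as for astrocytes (10% rose and 10% fell) and lymphocytes (11.1% fell) without peptide. Of 12 microglia markers, 3 rose without peptide (Cd68 0.36, Tyrobp 0.35 and Itgam 0.27) and 5 fell, led by P2ry13 (-0.64), Tmem119 (-0.52) and P2ry12 (-0.47); with IDR1018, 2 rose and 4 fell. Their summed level was 13.07 to 13.26 on right and 13.10 to 13.15 on left arrays without peptide, and 13.01 to 13.17 and 13.03 to 13.21 with it. Of 12 blood myeloid markers 2 rose without peptide, Chil3 and Lyz2, and 0 passed with it by limma, with 0 at an unadjusted p below 0.05; the summed levels were 11.89 to 12.20 on the right and 11.84 to 12.25 on the left without peptide, and 12.01 to 12.09 and 11.96 to 12.18 with it. S100a8, Ngp, Ccr2, Retnlg and Chil3 were below the control median on all 20 arrays.

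Of 12 neuron markers 2 fell in both comparisons, Tubb3 (-0.39 and -0.30) and Gad2 (-0.32 and -0.25). Their summed level was 16.26 to 16.30 on the right and 16.17 to 16.20 on the left without peptide, and 16.24 to 16.29 and 16.19 to 16.22 with it. The 2 sides thus did not overlap in either treatment. Of 10 astrocyte markers, 1 rose and 1 fell without peptide and 2 rose and 2 fell with it: Gfap rose (0.32 and 0.24) and Fgfr3 fell (-0.52 and -0.62) in both. Of 10 oligodendrocyte lineage markers 2 fell without peptide and 3 with it, led by the precursor genes Pdgfra (-0.45 and -0.36) and Cspg4 (-0.40 and -0.32). Of 11 endothelial and mural markers, 1 rose, Pecam1 (0.36 and 0.21), and 2 fell, Slco1a4 (-0.53 and -0.81) and Pdgfrb (-0.22 and -0.24), in both.

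In the meningeal list Slc6a13 fell in both (-0.80 and -0.59), and of 2 erythroid genes Alas2 rose in both (0.45 and 0.24). Of 9 lymphocyte markers Cd4 fell in both (-0.27 and -0.23), and Cd3d, Cd3g, Cd79a, Ms4a1 and Nkg7 were below the control median on all arrays. Of 8 choroid plexus and ependymal markers 0 passed without peptide by limma, with 2 at an unadjusted p below 0.05, and Tmem212 fell with it (-0.22).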

How the data were processed

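Total RNA of 20 hemispheres was measured on 1 array each. The authors' deposited values are log2 probe set signals; RMA and version 1.38.1 of the affy package are named per the submitters' processing notes, and the chip definition is not given in the sources used here. The values were analysed without further scaling. Of 34760 probe sets, 6573 whose identifiers precede the first annotated one were taken as controls and left out, and 28187 were tested. Gene names came from the platform annotation, and all 59 members matched RefSeq by Entrez identifier.

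Comparisons between groups used limma (version 3.58.1, R 4.3.3), with only the groups concerned in each fit, all 4 for the peptide effect on the left-right difference, and Benjamini-Hochberg adjustment over all tested probe sets at 0.05. No block for the animal was used. Left and right arrays pair by a specimen number shared in the labels. Correlations of their deviations from the group means were 0.036 to 0.254 over all probe sets and -0.069 to 0.542 over members. P-values of the main fits rest on the spread between arrays within each group of these samples. Both hemispheres of an animal were thereby taken as independent. The code was tested on simulated data.

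Alternatives were all 4 groups in one fit, an animal block, median centring, the control median as covariate, controls kept, dim probe sets left out, a trended robust prior, all probe sets of a gene, and each animal left out. Leaving out Rpl12 was added after seeing the data. Members, lists and the naming rule were chosen with earlier results of these data known. The rule names up to 8 called members per direction and comparison (otherwise 3 by p), the 5 highest and lowest by signal, a panel, and up to 3 called genes per direction of each list. Eef1a1, Eef2, Eef1b2, Naca, Gas5, Gabpa, Larp1, Mdm2, Mrpl10, Mrpl55, Slco1a4 and the members listed by subunit were named outside it, after their values were seen. The same holds for Plk2, Ccng1, Bbc3, Btg2, Zmat3, Trp53inp1, Mdm4, Eif3f, Eif3h, Eif3k and Eif3m.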

Additional observations from a re-analysis of the deposited data

Results flagged for a closer look

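Of 136 groups of 5 arrays examined, from 33 named members and the family median, 7 held an array farther from the others than Dixon's 95% critical value of 0.71 allows; chance gives about 1 in 20. Without peptide, Rpl29 was low at 9.36 on the left array of animal 4 (the next lowest was 9.67), and Rps28 low at 11.02 on the right array of animal 5. With IDR1018, Rpl7a was low at 7.41 on the right array of animal 1, Rplp2 low at 7.59 on the right array of animal 4, and Rps27l high at 10.18 on the right array of animal 5. The left array of animal 5 with IDR1018 was set apart in 2 genes, Rpl41 (high, 13.20) and Rplp0 (low, 13.36).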

How the results depend on the processing

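Without peptide, the count of members higher on the left (23) was 4 with the control median as covariate and 5 to 22 when an animal was left out. It was 18 (8.87% of all probe sets) with the replicate block, which pairs the hemispheres of an animal, and 18 (7.7%) with median centring. The count was 20 (6.56%) with controls kept, 27 (13.7%) without dim probe sets, 28 (10.8%) with all 4 groups and 29 (10.3%) with the trended robust prior. With IDR1018 the count (6) was 11 with all 4 groups in the fit (8.71% of all probe sets), 2 with the replicate block and 2 with the control covariate. It was 10 without dim probe sets (11.8%), 16 with the trended robust prior (8.99%) and 2 to 5 with an animal left out. Counting a member when any of its probe sets was called gave 29 without peptide and 14 with IDR1018. Members with several probe sets had more chances in that count, and no share over all genes was counted that way. The count of lower members (0) was 1 with all 4 groups, the replicate block or median centring (Rpl39l). Without peptide, Rps13 and Rpl27a were no longer past the threshold without animal 2, 3, 4 or 5 (0.14 in each for Rps13, 0.11 to 0.13 for Rpl27a), nor Rpl27a with the replicate block (adjusted p = 0.0507 by limma). Medians moved by less than the spread between animals, and counts for the peptide comparisons and the interaction stayed 0. Of 742 values of named genes under alternatives, 59 lost and 15 gained the call, and 5 changed sign, all within error and with IDR1018: Rps19 (0.02) was -0.046 with the covariate and -0.052 to 0.099 with an animal left out, below 0 without animal 2 or 3, and Rps6 (-0.0027) was -0.022 to 0.018 with an animal left out, above 0 without animal 4 or 5. All 4 groups already stand in the interaction fit. Peptide comparisons within a hemisphere have no block. Dim probe sets, 5 arrays a group and array order tied to hemisphere limit all values.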
